A study of Mus musculus with 6 samples.

Results

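Transcription factors of the endoderm and of liver-type gene programmes were followed in islets after a pulse of Sox17. They are the forkhead factors Foxa1, Foxa2 and Foxa3, the GATA factors Gata4 and Gata6, the nuclear receptor Hnf4a, the ONECUT factor Onecut1, the homeobox factor Prox1 and the caudal homeobox factor Cdx2. The 9 genes were chosen by name as endodermal partners or targets of SOX17, out of 19937 genes on the arrays, and each was read by its 1 probe set with a single gene symbol. The Sox17-GOF mice carried Ins2-rtTA and tetO-Sox17, so that doxycycline turns on Sox17 in cells that use the Ins2 promoter, which are the β cells. The control mice are labelled Ins2-rtTA alone, so by the labels of these arrays both groups held the transactivator, and both received doxycycline in food and water for 24 hours. For other experiments the study describes controls with tetO-Sox17 alone. All mice were on a C57BL/6 background after at least 3 generations of backcrossing and were 16 weeks old, and each group had 3 samples that the methods call independent biological triplicates. Whether islets of several animals were pooled is not given in the sources used here. RNA of whole islets was hybridized to Affymetrix Mouse Gene 1.0 ST arrays, and the values below are RMA-normalized log2 levels, on which a difference of 1 is a 2-fold change.

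In the early embryo the definitive endoderm is specified by SOX17 together with FOXA and GATA factors, and FOXA and GATA proteins are known as pioneer factors that can bind closed chromatin and open it for others. HNF4A and ONECUT1 act after them in liver and pancreas, where HNF4A holds hepatocytes in their mature state and supports insulin secretion in β cells. PROX1 acts in the liver and pancreas buds and is also the master factor of lymphatic endothelium, and CDX2 sets intestinal identity and is normally silent in pancreas.

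The upstream sequence of these genes is shown for 4 of them. Foxa3, Foxa2 and Cdx2 are the members whose Sox17-GOF and control arrays did not overlap, which held for 25.5% of all genes. Hnf4a has letters of 2 of the other families close together. Each run is the 250 bases before a RefSeq transcription start on GRCm38.p6, 5′ to 3′ on the strand of the gene. Capitals mark matches, on either strand, to 4 short motifs, namely AACAAT for SOX, GTAAACA for forkhead, AGATAA for GATA and AATCAAT for ONECUT factors. The Foxa3 run is chr7:19023540-19023789, minus strand, the Foxa2 run, taken before the farthest upstream of its 3 starts, is chr2:148046970-148047219, minus strand, the Cdx2 run is chr5:147307250-147307499, minus strand, and the Hnf4a run, before the upstream of its 2 starts, is chr2:163506607-163506856, plus strand.
Foxa3: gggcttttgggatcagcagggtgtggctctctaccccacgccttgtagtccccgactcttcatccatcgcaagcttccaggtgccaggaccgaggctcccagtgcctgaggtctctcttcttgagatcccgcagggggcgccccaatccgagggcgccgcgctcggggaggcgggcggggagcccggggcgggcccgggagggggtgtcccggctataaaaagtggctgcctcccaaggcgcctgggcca
Foxa2: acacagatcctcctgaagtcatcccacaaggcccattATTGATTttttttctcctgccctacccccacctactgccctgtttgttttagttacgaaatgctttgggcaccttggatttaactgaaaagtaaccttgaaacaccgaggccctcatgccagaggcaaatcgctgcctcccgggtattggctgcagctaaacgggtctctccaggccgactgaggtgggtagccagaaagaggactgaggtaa
Cdx2: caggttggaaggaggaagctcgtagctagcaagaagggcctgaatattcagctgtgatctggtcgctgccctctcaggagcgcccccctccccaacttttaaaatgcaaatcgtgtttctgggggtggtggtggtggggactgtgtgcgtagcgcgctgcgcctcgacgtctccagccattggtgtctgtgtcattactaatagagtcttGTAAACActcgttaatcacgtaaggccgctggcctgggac
Hnf4a: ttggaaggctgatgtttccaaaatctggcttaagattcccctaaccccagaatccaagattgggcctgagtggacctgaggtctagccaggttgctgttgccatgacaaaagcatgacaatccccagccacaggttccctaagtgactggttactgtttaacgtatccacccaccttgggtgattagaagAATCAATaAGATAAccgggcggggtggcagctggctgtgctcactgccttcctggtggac
RefSeq windows of 300 bases (250 before and 50 after the start) were found for 7 of the 9 genes, 11 windows in all, and Gata4 and Gata6 were not matched. None of the 11 windows held the SOX letters, which 10.7% of 32851 mouse windows hold. The forkhead letters stood before Foxa1 and Cdx2 (3.65% of all windows), and the GATA letters (11.2%) and the ONECUT letters (2.86%) each stood before Foxa2 and Hnf4a, in Foxa2 at different starts. In Hnf4a the ONECUT and GATA matches are separated by a single base and do not overlap. A match of letters is a description of the sequence, and the absence of a match covers this window only.

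Before the 9 genes are described, 3 features of the arrays bear on them. Sox17 itself, the transgene's product, had levels of 6.35, 6.22 and 6.36 on the Sox17-GOF arrays and 5.50, 5.72 and 5.71 on the control arrays (log2 difference 0.67, standard error 0.09, adjusted p = 0.00876 from limma). The labels and this gene thus go the same way, although it was not tested whether its probes match the transgene's RNA. The islet hormones Ins2, Gcg and Sst lay between 12.65 and 13.77 on all 6 arrays. Acinar enzymes were present beside them, with a mean over 9 acinar genes of 10.41 to 11.26 on the Sox17-GOF arrays and 10.91 to 11.20 on the control arrays, which shows RNA of exocrine cells in every sample. Sox17-GOF replicate 3 stood apart from the other Sox17-GOF arrays on the second principal component, which held 19.8% of the variance. Of 17 genes of intestinal epithelium, 14 were highest of all 6 arrays on Sox17-GOF replicate 3, against 18.0% of all genes. In 8 of the 17 that array exceeded the next by over 1 on the log2 scale, as it did in 0.286% of all genes. Differences of the 9 factors that rest on this array are also given without it.

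None of the 9 factors differed between Sox17-GOF and control islets at an adjusted p under 0.05 (limma, Benjamini-Hochberg over 22961 probe sets). Of all probe sets tested, 4.93% passed this threshold, and of all genes 5.21%, 2.77% higher and 2.44% lower in Sox17-GOF islets, so a count of 0 of 9 lies near the background and says nothing particular about these genes. At an unadjusted p under 0.05 the count was 1 of 9, Foxa3, against 19.7% of all genes. The unmoderated test that the methods name gave 0 of 9, with a lowest unadjusted p of 0.0852 (Foxa2). The share of all genes that pass by this test alone was not counted, so its 0 cannot be judged. With the 1.3-fold threshold of the methods added, the test again gave 0 of 9, and 1623 of 22961 probe sets passed. The 0 with the fold threshold says nothing particular about these genes. The log2 differences ran between -0.45 (Foxa3) and 0.30 (Cdx2), 5 above and 4 below 0, and their median was 0.03, against -0.01 over all 19937 genes. Their median size without sign was 0.18, against 0.11 over all genes. All 9 probe sets had mean levels above 4.63, the 20th percentile of all values, which is taken here as the edge of the background. A level above this edge does not show that a gene is expressed. In control islets the gastric gene Gkn1 had a mean of 6.03, above those of Foxa1 (5.35) and Cdx2 (5.61). In whole islets fewer cells of a type and less RNA per cell cannot be told apart.

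**Figure D1:**
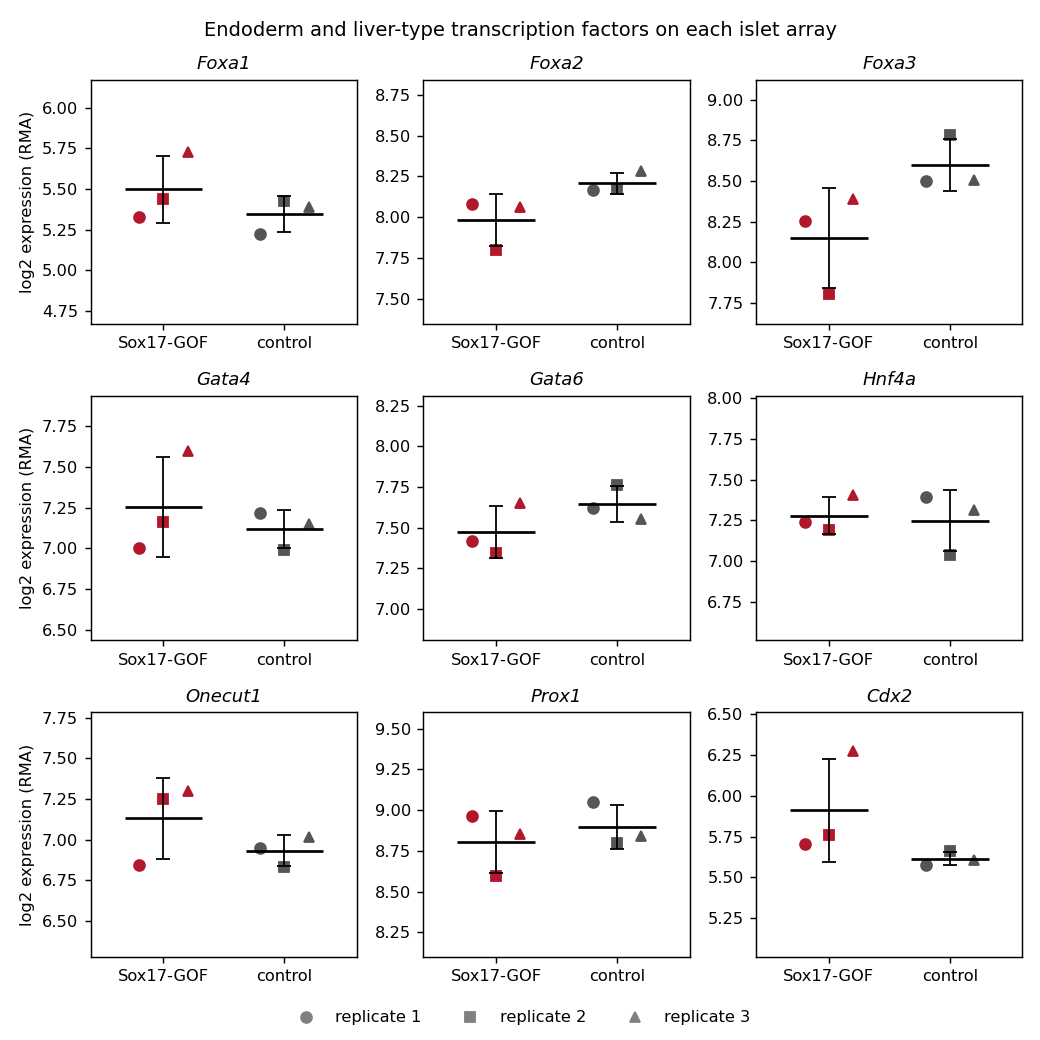
Log2 expression (vertical axis, RMA) of each of the 9 factors on the 3 Sox17-GOF arrays (red, left) and the 3 control arrays (grey, right), with the marker shape giving the replicate number, the line the group mean and the bar the SD. Every panel spans the same range of log2 units. The groups do not overlap for Foxa2, Foxa3 and Cdx2, as they do not for 25.5% of all genes. The triangle of Sox17-GOF replicate 3 is the highest red point in 7 of the 9 panels, against 32.6% of all genes.

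The forkhead factors FOXA2 and FOXA3 had values on the same side. FOXA2 maintains the expression of genes for insulin secretion in mature β cells. Foxa2 (probe set 10488374) had levels of 8.08, 7.80 and 8.06 in Sox17-GOF islets, with 8.17, 8.17 and 8.28 in the controls. The Sox17-GOF arrays were all below the lowest control array, and replicate 2 was the lowest of all. The means were 7.98 ± 0.16 in Sox17-GOF and 8.21 ± 0.07 in control islets (SD, n = 3 each), a log2 difference of -0.23 with a 95% interval from -0.46 to 0.00 (adjusted p = 0.267 from limma).
Foxa3, best known as a liver and gut paralogue of the family, had the largest difference of the 9. Foxa3 (probe set 10560431) had levels of 8.25, 7.80 and 8.39 in Sox17-GOF islets, with 8.50, 8.78 and 8.51 in the controls. The groups again did not overlap, and Sox17-GOF replicate 2 was the lowest array. The means were 8.15 ± 0.31 in Sox17-GOF and 8.60 ± 0.16 in control islets (SD, n = 3 each), a 1.36-fold difference. On the log2 scale this was -0.45, with a 95% interval from -0.82 to -0.08 (unadjusted p = 0.0242, adjusted p = 0.180 from limma), which does not pass the threshold. None of the 14 alternative limma fits called either gene. Both differences kept their sign, which says little, since leaving out 1 array cannot turn it where groups do not overlap. A single array weighed on both differences. Without Sox17-GOF replicate 2 the difference was -0.13 for Foxa2 and -0.28 for Foxa3 (adjusted p = 0.517 and 0.318), and without Sox17-GOF replicate 3 that of Foxa3 was -0.57 (adjusted p = 0.113).
Foxa1, the third paralogue, which overlaps with Foxa2 in pancreas development and helps control glucagon in α cells, did not share this side. Foxa1 (probe set 10400504) had levels of 5.33, 5.44 and 5.72 in Sox17-GOF islets, with 5.22, 5.42 and 5.39 in the controls. The groups overlapped, and Sox17-GOF replicate 3 was the highest array. The means were 5.50 ± 0.20 in Sox17-GOF and 5.35 ± 0.11 in control islets (SD, n = 3 each), a log2 difference of 0.15 with a 95% interval from -0.12 to 0.43 (adjusted p = 0.560 from limma). Without Sox17-GOF replicate 3 the difference was 0.04. Over the 9 genes, the groups did not overlap for 3 (25.5% of all genes), of which Foxa2 and Foxa3 were on the lower side (14.2% of all genes) and Cdx2 on the higher side (11.3%).

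The GATA factors showed no common direction. GATA4 and GATA6 act together in the growth of the pancreas bud, and in the adult gland GATA4 is mostly known from acinar cells while GATA6 is used by both acinar and endocrine cells. Gata4 (probe set 10420747) had levels of 7.00, 7.16 and 7.60 in Sox17-GOF islets, with 7.21, 6.99 and 7.15 in the controls. The groups overlapped, with Sox17-GOF replicate 3 the highest array. The log2 difference was 0.14 (95% interval from -0.22 to 0.49, adjusted p = 0.708 from limma), and without Sox17-GOF replicate 3 it turned to -0.04. Of the acinar genes, 8 of 9 were also highest of all arrays on Sox17-GOF replicate 3, against 18.0% of all genes. The same 8 were lowest on Sox17-GOF replicate 1, while Gata4 was lowest on control replicate 2. The exception was Bhlha15, which was lowest on Sox17-GOF replicate 3 (7.31). It was also the one acinar gene that passed, lower in Sox17-GOF islets (log2 difference -0.64, adjusted p = 0.0312 from limma). The part of acinar RNA in the values of Gata4 was not tested.
Gata6 (probe set 10453857) had levels of 7.42, 7.35 and 7.65 in Sox17-GOF islets, with 7.62, 7.77 and 7.55 in the controls. Sox17-GOF replicate 3 lay within the control values and the other Sox17-GOF arrays below them. The log2 difference was -0.18 (95% interval from -0.42 to 0.07, adjusted p = 0.434 from limma), and -0.27 without Sox17-GOF replicate 3 (adjusted p = 0.210).

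Hnf4a, the gene of the receptor that is mutated in MODY1, had the smallest difference of the 9. Hnf4a (probe set 10478389) had levels of 7.24, 7.19 and 7.41 in Sox17-GOF islets, with 7.40, 7.03 and 7.32 in the controls. All Sox17-GOF values but the highest lay inside the control range. The means were 7.28 ± 0.11 in Sox17-GOF and 7.25 ± 0.19 in control islets (SD, n = 3 each), and the log2 difference was 0.03 with a 95% interval from -0.24 to 0.30 (adjusted p = 0.923 from limma). Its sign turned without Sox17-GOF replicate 3 (-0.03) and without control replicate 2 (-0.08). The gene has a hepatic and a pancreatic start, and a single probe set does not tell their transcripts apart.
Onecut1 encodes HNF6, which is needed for endocrine progenitors and ducts and is shut off in mature β cells. Onecut1 (probe set 10587082) had levels of 6.85, 7.25 and 7.30 in Sox17-GOF islets, with 6.95, 6.83 and 7.02 in the controls. Sox17-GOF replicates 2 and 3 lay above every control array and replicate 1 lay among them. The log2 difference was 0.20 (95% interval from -0.10 to 0.50, adjusted p = 0.480 from limma). Without Sox17-GOF replicate 1, the array on which 8 of 9 acinar genes were lowest, it was 0.34 (adjusted p = 0.102), and without Sox17-GOF replicate 3 it was 0.11 (adjusted p = 0.740). Duct cells keep ONECUT1 in the adult, and the mean over 6 duct genes was 7.37, 7.66 and 8.24 on the Sox17-GOF arrays and 7.54, 7.37 and 7.40 on the control arrays, and none of the 6 passed. On Sox17-GOF replicate 3 the largest excess was in Krt19 (9.13, with 6.53, 6.30 and 6.16 in the controls). Krt7 was instead lowest on that array (10.08, with 10.54, 10.58 and 10.62 in the controls), so the mean does not stand for all 6. The part of duct and acinar RNA in the Onecut1 value was not tested.

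Prox1 (probe set 10361023) had levels of 8.97, 8.59 and 8.86 in Sox17-GOF islets, with 9.05, 8.80 and 8.84 in the controls. The groups overlapped, with Sox17-GOF replicate 2 the lowest array. The log2 difference was -0.09 (95% interval from -0.37 to 0.19, adjusted p = 0.751 from limma) and 0.01 without Sox17-GOF replicate 2. Since PROX1 also marks lymphatic vessels, 4 other genes of lymphatic endothelium were set beside it. Their mean level was 6.09 to 6.38 in Sox17-GOF and 6.23 to 6.44 in control islets. Of these Lyve1, a hyaluronan receptor, was lower (log2 difference -0.64, adjusted p = 0.00954 from limma) while the other 3 did not pass. Their log2 differences were 0.64 for Pdpn (adjusted p = 0.228 from limma), -0.19 for Flt4 and -0.08 for Reln, so the list had no common direction. The part of lymphatic cells in the Prox1 value was not tested.
Cdx2 was the member with the largest positive difference. Cdx2 (probe set 10535771) had levels of 5.70, 5.76 and 6.28 in Sox17-GOF islets, with 5.58, 5.66 and 5.60 in the controls. Every Sox17-GOF array lay above every control array, but replicates 1 and 2 did so by little and replicate 3 stood clear of all others. The means were 5.91 ± 0.32 in Sox17-GOF and 5.61 ± 0.04 in control islets (SD, n = 3 each), a log2 difference of 0.30 with a 95% interval from -0.05 to 0.65 (adjusted p = 0.341 from limma). Without Sox17-GOF replicate 3 the difference was 0.12 (adjusted p = 0.531).
The array with the high Cdx2 level was also the one with high levels of intestinal genes. The mean over the 17 intestinal genes was 6.36, 5.72 and 7.49 on the Sox17-GOF arrays and 5.83, 5.80 and 6.11 on the control arrays. Cdh17, an intestinal cadherin and known target of CDX2, had levels of 4.79, 4.53 and 7.56 in Sox17-GOF islets, with 4.88, 4.78 and 4.75 in the controls. Fabp1, a fatty acid binding protein of gut and liver, had levels of 6.90, 4.05 and 10.49 in Sox17-GOF islets, with 4.20, 4.13 and 4.79 in the controls. Fabp2, the intestinal paralogue, was at 8.94, 4.33 and 11.33 in Sox17-GOF islets, with 4.79, 4.70 and 8.01 in the controls, so that a control array also carried it. Cdh17, Fabp1 and Fabp2 are named after their values were seen, and none passed the test (adjusted p = 0.603, 0.332 and 0.523). Vil1, villin of brush borders, was the one intestinal gene that passed, and it was lower in Sox17-GOF islets (log2 difference -0.55, standard error 0.08, adjusted p = 0.0128), a call that ended without control replicate 1 or 2 (adjusted p up to 0.0578). The part of intestinal RNA in the Cdx2 value was not tested.

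**Figure D2:**
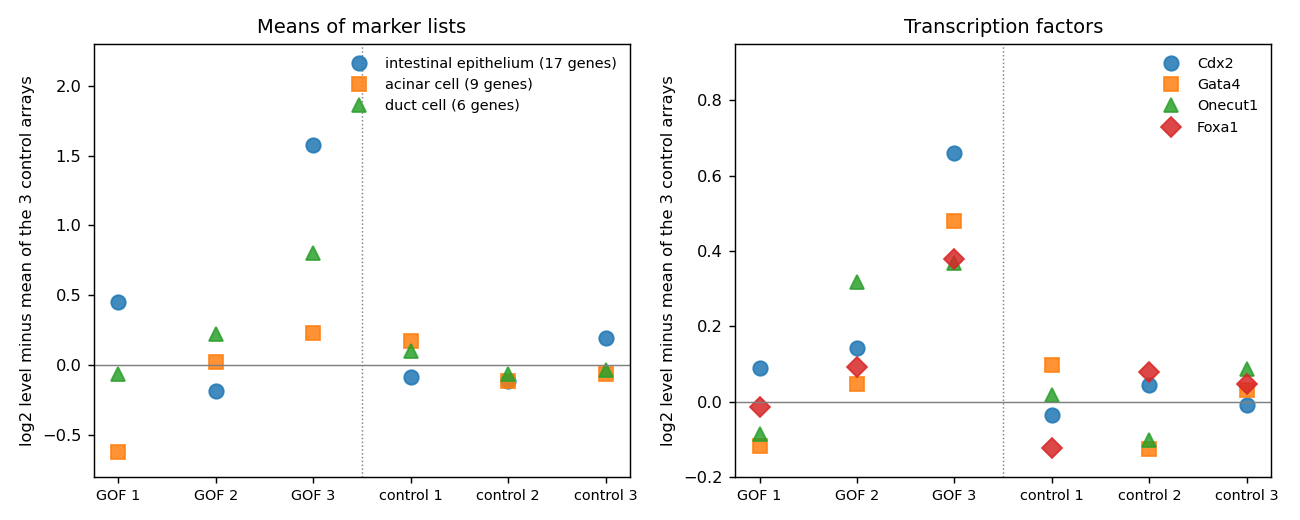
Log2 level on each array minus the mean of the 3 control arrays (vertical axis), for the means of 3 marker lists (left) and for Cdx2, Gata4, Onecut1 and Foxa1 (right), with Sox17-GOF (GOF) arrays left of the dotted line and control arrays right of it. The intestinal list is 1.58 and Cdx2 0.66 above the control mean on Sox17-GOF replicate 3, the array that is highest for all 3 lists and all 4 factors.

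Since no member passed the test, the intervals give what sizes of change in signal these arrays leave room for. That signal was low for Foxa1 and Cdx2. The 95% intervals, which are not adjusted for the number of genes, lay within 2-fold in either direction for all 9 genes and within 1.5-fold for 7, with Foxa3 and Cdx2 the exceptions. They lay within 1.3-fold, the fold threshold of the methods, for Hnf4a and Prox1 only. For the other 7 genes 3 arrays per group cannot tell whether a change of that size was present.

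**Figure D3:**
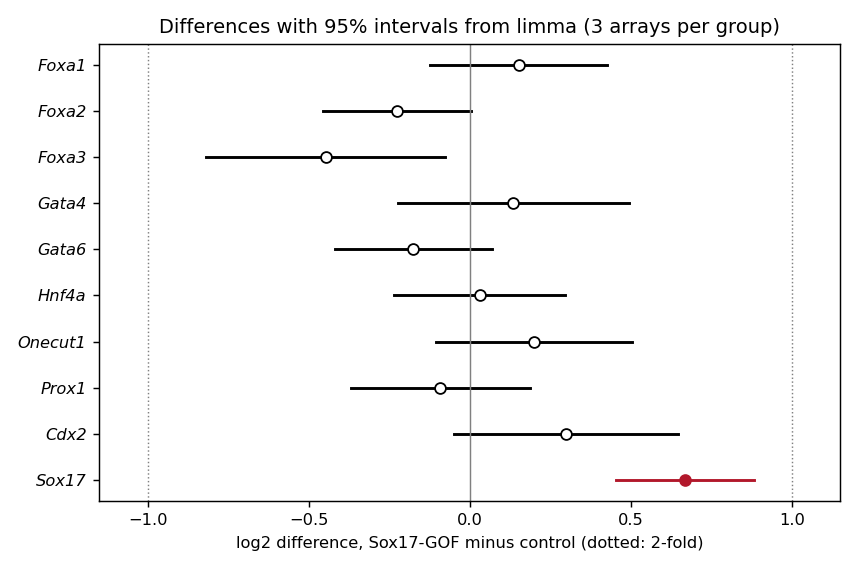
Log2 difference, Sox17-GOF minus control islets (horizontal axis), of the 9 factors and of Sox17, with 95% intervals from limma (3 arrays per group). Filled red marks an adjusted p under 0.05, which only Sox17 reaches (0.67). All 9 open circles have intervals inside the dotted lines at 2-fold.

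The spread of the 9 genes within the Sox17-GOF group was set beside that within the control group. The SD was larger in Sox17-GOF islets for 8 of 9 genes, Hnf4a being the exception, against 58.4% of all genes, and the median SD was 0.20 in Sox17-GOF and 0.11 in control islets. Over all genes these medians were 0.12 in Sox17-GOF and 0.10 in control islets. Without Sox17-GOF replicate 3 the SD was larger in Sox17-GOF islets for 5 of 9 genes, against 45.9% of all genes, and the median SD was 0.12 in Sox17-GOF and 0.11 in control islets. Without Sox17-GOF replicate 2 it was also larger for 5 of 9, against 52.5% of all genes. Without Sox17-GOF replicate 1 it was larger for 7 of 9, against 48.4% of all genes. These SDs without an array were chosen after seeing the data. Leaving out an outlying array narrows the spread by itself, so they do not tell what the spread rests on. Sox17-GOF replicate 3 was the highest Sox17-GOF array for 7 of the 9 (32.6% of all genes), and replicate 2 was the lowest for 5 (32.3%). The control arrays shared out the highest places as 3, 4 and 2 of 9.

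**Figure D4:**
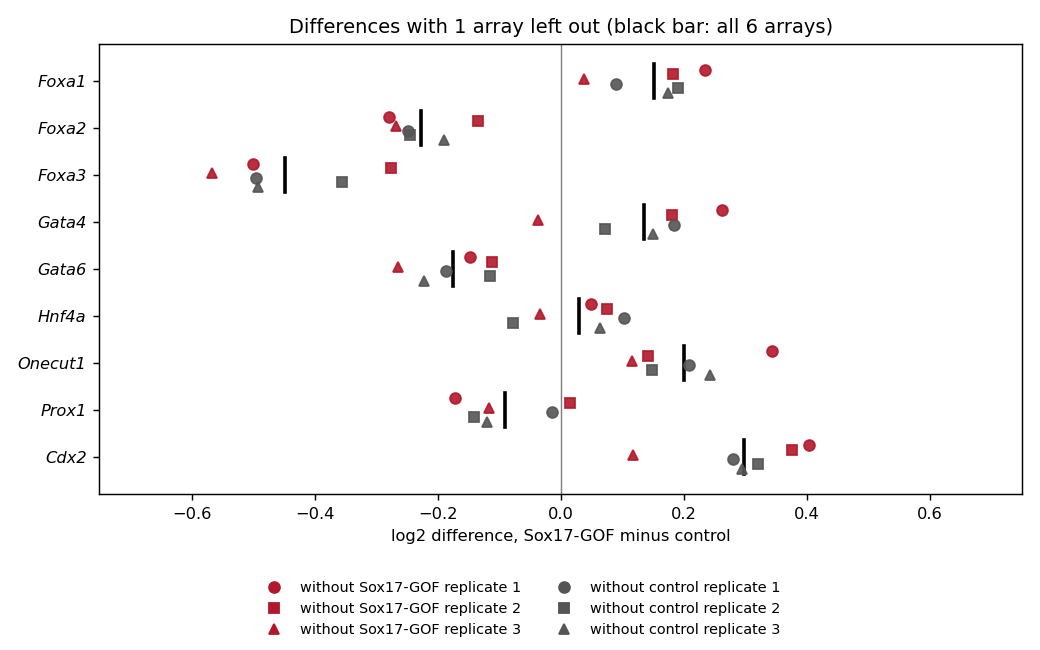
Log2 difference, Sox17-GOF minus control (horizontal axis), of each factor with 1 array left out (red without a Sox17-GOF array, grey without a control array, shape for the replicate number) and with all 6 (black bar). Foxa2, Foxa3 and Gata6 stay below 0 and Foxa1, Onecut1 and Cdx2 above it in every such fit, while Gata4, Hnf4a and Prox1 cross it. For Foxa2, Foxa3 and Cdx2, whose groups do not overlap, no such fit could cross 0.

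The genes around these factors were counted from lists. Of 24 measured further transcription factors of endoderm and liver, 22 did not pass, 2 were lower and none was higher, with a median log2 difference of -0.07. The larger of these decreases was in Nr1h4, the bile acid receptor FXR of liver and gut. Nr1h4 had levels of 7.24, 6.74 and 7.03 in Sox17-GOF islets, with 8.09, 8.10 and 8.07 in the controls. Its control arrays differed by little and all Sox17-GOF arrays lay well below them, a 2.11-fold difference (log2 difference -1.08, standard error 0.12, adjusted p = 0.00456 from limma) that passed in every set of 5 arrays. The other was Pdx1, the homeobox factor of pancreas and β cells (log2 difference -0.47, standard error 0.09, adjusted p = 0.0327), which no longer passed without any 1 of the 6 arrays (adjusted p up to 0.113). The paralogues of the members, Hnf4g (0.28), Onecut2 (0.18), Onecut3 (0.00), Gata5 (-0.09) and Cdx1 (0.25), had log2 differences that did not pass (adjusted p of 0.240 or more).
Of 15 measured partners and cofactors of SOX17, GATA or FOXA proteins, 14 did not pass, 1 was higher and none was lower. The gene that was higher was Tle1, a Groucho corepressor that FOXA proteins and TCF factors recruit. Tle1 had levels of 7.57, 7.48 and 7.27 in Sox17-GOF islets, with 6.85, 6.87 and 6.89 in the controls (log2 difference 0.57, standard error 0.09, adjusted p = 0.0160). The groups were well apart, but the call ended without Sox17-GOF replicate 2 or any 1 control array (adjusted p up to 0.0749). β-catenin itself, Ctnnb1, had a log2 difference of -0.10 (adjusted p = 0.527).

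**Figure D5:**
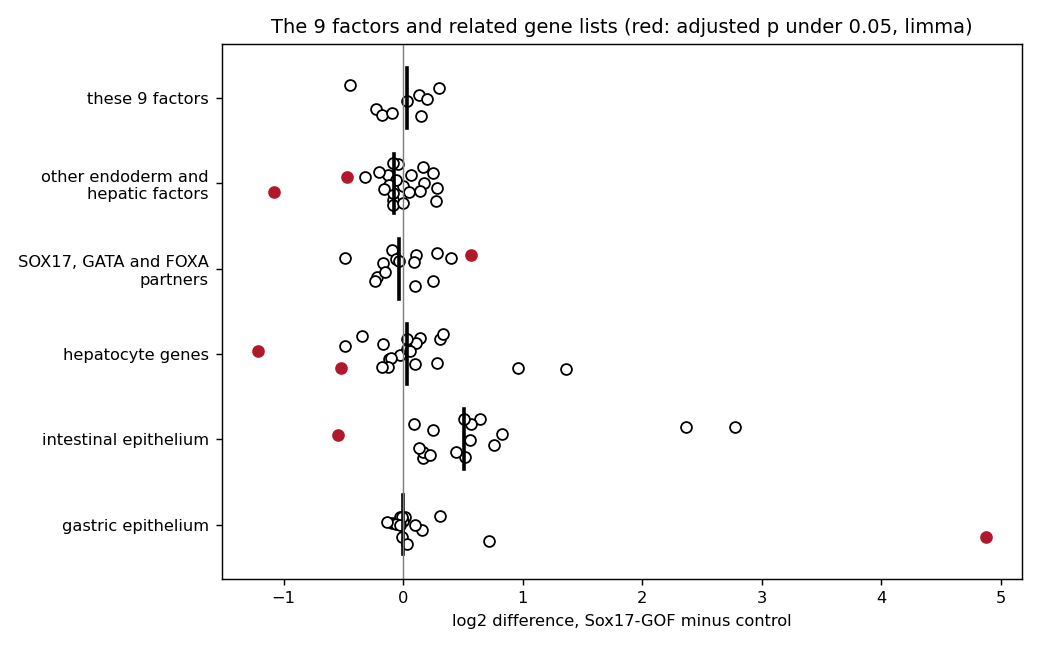
Log2 differences, Sox17-GOF minus control (horizontal axis), of the 9 factors and of the measured genes of 5 related lists, each circle a gene, red where the adjusted p from limma is under 0.05, with the black bar at the list's median. No circle of the 9 factors is red, and the other 5 lists have 1 or 2 red circles each. The red circle far right among gastric genes is Lipf, drawn at its measured difference although its control values lie below the background edge of 4.63.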

How the data were processed

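RNA of whole islets from 3 Sox17-GOF and 3 control samples was hybridized to Mouse Gene 1.0 ST arrays (Affymetrix), 1 per sample. The authors deposited log2 values after RMA (background correction, quantile normalization and median polish within probe sets). GeneSpring 10.1 is the software in the methods, and Affymetrix Expression Console is the one in the submitters' processing notes. Quantile normalization gives arrays like distributions, so a shift shared by most genes would not show. Nothing was rescaled here.

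limma 3.58.1 (R 4.3.3, lmFit and eBayes without trend) compared the groups over the 22961 of 34760 probe sets that carry a gene symbol in the platform annotation, with Benjamini-Hochberg adjustment at 0.05. The procedure was tested on simulated arrays. A gene is its brightest single-symbol probe set. The members and lists were chosen with earlier results of these data known. Named genes are the 9 members, Sox17 and up to 4 changed genes per list by size of change. One list of islet genes is not reported here. Paralogues, defining markers and Ctnnb1 were added after their values were seen. Separate fits used a trend on intensity, weights per array, centring on the median, a further quantile step, every probe set, only probe sets above the dim level, the replicate number as block, or the average over the probe sets of a gene, and left out each array in turn. Student's test with the fold threshold of the methods was run beside them. The number of arrays limits the precision.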

Additional observations from a re-analysis of the deposited data

How the results depend on the processing

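The count of 0 members called, in either direction, was the same in all 16 alternatives run. The number of probe sets called over the whole arrays moved more, with 1133 in the fit reported, 1357 with array weights, 558 with all probe sets tested, 1623 by the methods' Student's test with its fold threshold and unadjusted p, 71 by that test after Benjamini-Hochberg, and between 385 and 1020 when 1 array was left out. A fit with the replicate number in a block gave 720, and members called stayed at 0. The labels do not say that equal numbers share an animal or batch, and deviations of equally numbered arrays correlated at 0.05, -0.02 and -0.04, with 2 of 6 arrays correlating best with their own number. Of the members, 3 changed sign in some fits with 1 array left out. The log2 differences were -0.036 to 0.26 for Gata4, -0.077 to 0.10 for Hnf4a and -0.17 to 0.015 for Prox1, and the cause was not tested. Of the other genes named, Fgb and Pdx1 no longer passed in any set of 5 arrays. They also did not pass with all probe sets tested (adjusted p = 0.0886 and 0.0779) or with the block (adjusted p = 0.0995 and 0.0925). Pdx1 did not pass after median centring (adjusted p = 0.0540). By Student's test after Benjamini-Hochberg neither passed (adjusted p = 0.173 and 0.143). Nor did Sox17 (adjusted p = 0.0906), Nr1h4 (0.0937), Tat (0.134), Lipf (0.150), Tle1 (0.113) or Vil1 (0.0898) by that test. Without control replicates 1, 2 and 3 the counts over all probe sets were 472, 385 and 521, and without Sox17-GOF replicate 2 the count was 651. All 9 members lay above the dim level, but RMA is known to compress differences in low signals.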

Other observations

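Genes of mature liver and stomach were looked up beside the factors known to drive them. Of 21 measured hepatocyte genes, 19 did not pass, 2 were lower and none was higher in Sox17-GOF islets, with a median log2 difference of 0.03, and 5 (Afp, G6pc, Fgg, Cyp7a1 and Otc) had mean levels at or below the 20th percentile. Tat, tyrosine aminotransferase, had levels of 7.18, 7.12 and 6.62 in Sox17-GOF islets, with 8.27, 7.94 and 8.35 in the controls (log2 difference -1.21, standard error 0.17, adjusted p = 0.00937 from limma). Fgb, the fibrinogen β chain, had levels of 5.30, 5.10 and 5.23 in Sox17-GOF islets, with 5.62, 5.93 and 5.64 in the controls (log2 difference -0.52, standard error 0.11, adjusted p = 0.0373), a call that ended without any 1 array (adjusted p up to 0.114). Apoa1, an apolipoprotein of liver and gut, was at 8.19, 7.10 and 9.73 in Sox17-GOF islets, with 6.81, 6.95 and 7.17 in the controls, and Cps1, a urea cycle enzyme, was at 5.32, 5.03 and 7.61 in Sox17-GOF islets, with 5.07, 5.09 and 4.92 in the controls. Both were named after their values were seen, neither passed (adjusted p = 0.246 and 0.453), and both were highest on Sox17-GOF replicate 3, the array with high intestinal genes.

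Of 15 measured gastric genes, 14 did not pass, 1 was higher and none was lower, with a median log2 difference of 0.00. The gene that was higher was Lipf, gastric lipase, at 7.77, 10.72 and 7.92 in Sox17-GOF islets, with 3.90, 3.93 and 3.95 in the controls (adjusted p = 0.0104 from limma, and 0.0534 without control replicate 2). All 3 control values lie below 4.63, the edge of the background, so the size of the difference was counted from that edge. The mean of the 3 Sox17-GOF arrays lay 18.1-fold above the edge, and replicate 2 weighed on this mean. Without Sox17-GOF replicate 2 the mean lay 9.28-fold above the edge, and without replicate 1 it lay 25.8-fold above. These folds were added after seeing the data. The array with the highest Lipf level was Sox17-GOF replicate 2, not the array with high intestinal genes. The other 14 genes had log2 differences from -0.14 (Pgc, a pepsinogen) to 0.71 (Anxa10, an annexin of stomach). Anxa10, named after its values were seen, was at 5.23, 5.25 and 6.79 in Sox17-GOF islets, with 4.93, 5.08 and 5.11 in the controls (adjusted p = 0.375), and was highest on Sox17-GOF replicate 3.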
